A study of Mus musculus with 768 samples.

Results

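Thymocytes of the DN1 gate from mice lacking Tcf7 in the germline (Tcf7-/-) were set against thymocytes of the same gate from wild-type mice, with 1 plate of 96 sorted single cells per genotype. Cells with at least 1000 detected genes were used, which kept all 96 Tcf7-/- cells and 86 of 96 wild-type cells, 182 of the 675 cells kept among 768 in the series. Both groups were C57BL/6 mice aged 6 to 8 weeks, and the gate took CD45-positive cells without lineage markers, CD4, CD8 or CD25 and with CD44. The series also holds DN1 cells of mice whose floxed Tcf7 alleles were removed by Vav-cre, which is active throughout the blood system, and CD25-positive (DN2-3) cells of the same genotypes and of mice with Lck-cre, which acts in T-cell precursors. No animal, sex or pooling of mice is named in the labels. Each genotype is therefore 1 library in this gate, and no test between genotypes is possible: intervals are 95% and exact and cover counting error only, not the spread between mice.

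Tcf7 encodes TCF1, an HMG-box transcription factor that acts downstream of Notch when thymic progenitors take on the T-cell fate. The DN1 gate is a mixed one, which holds the earliest thymic progenitors together with natural killer (NK) cells, innate lymphoid cells (ILC) such as lymphoid tissue inducer (LTi) cells, gamma-delta T cells and other non-T cells. TCF1 is also known for its part in the acquisition of Ly49 receptors by NK cells. In RNA summed over a library, fewer cells of a type and less RNA per cell cannot be told apart, so values per cell are given beside the sums.

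The gate could be checked on its own markers. Cd44 had a read count normalised to the library total of 193 (CPM) in the Tcf7-/- library and 217 CPM in the wild-type library, and Cd4 had 0 and 2 counts. Il2ra, which encodes CD25, had 6 or more counts in 14 of 96 Tcf7-/- cells and in 2 of 86 wild-type cells. Kit, which marks early thymic progenitors, had 6 or more counts in 2 wild-type cells, so the wild-type library held few cells of that kind. Cd3g and Cd3e, genes of the T-cell receptor complex, had 6 or more counts in 81 and 57 of 86 wild-type cells. In Tcf7-/- the numbers were 80 and 25 of 96 cells. Counts that may come from other libraries, described below, are not given for these 2 genes, and the limit of 6 may not exclude them. Counts of RNA do not show the protein at the cell surface.

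Depth was 4159404 counts in the Tcf7-/- library and 7112702 in the wild-type library, with medians of 37088.5 and 66572 counts per kept cell. The libraries differed in sex-linked genes: Xist, transcribed from the inactive X chromosome, had 128 CPM in the wild-type library and Eif2s3y, a Y-linked gene, 0 counts, whereas Eif2s3y had 176 CPM in the Tcf7-/- library. The same split separated both Tcf7-/- libraries from the other 6, and the Tcf7-/- entries also carry other label fields and builds. Genotype, sex and batch cannot be told apart in this comparison. Of 8579 genes at 10 CPM or more in a library, 896 (10.4%) were at least 2-fold higher in the Tcf7-/- cells and 458 (5.34%) at least 2-fold lower, on log2(CPM + 10), a scale that understates the change of low genes. Between the 2 Lck-cre plates, the only pair of libraries with 1 genotype and gate, 207 of 8004 genes (2.59%) were 2-fold higher and 224 (2.8%) lower. Whether those plates hold separate mice is not labelled.

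Wells of different plates carry the same 96 barcodes, and low counts of some genes in the Tcf7-/- DN1 library went with their counts in other libraries at the same barcode. Xist was counted at 1 to 5 counts in 48 Tcf7-/- cells and at 6 or more in 0, in all 69 counts, or 0.779% of the 8859 Xist counts of the other 7 libraries. In the Tcf7-/- DN2-3 library it had 1 count. Klra9, an NK receptor gene, had a median of 172 counts in the wild-type DN1 wells whose barcode partner among the Tcf7-/- wells had a Klra9 count (36 wells) and a median of 3 where the partner had none (60 wells). As a description, Spearman's rho over the 96 wells was 0.66 for Klra9 with the wild-type DN1 wells, and for Xist 0.06 with those wells and 0.34 with the sum of the other 7 libraries. At the Xist rate, a median of 8.04% of a Tcf7-/- well's counts would come from the same barcode elsewhere (range 2.13 to 111%), and 26 wells were over 20%. This rate is rough. With 1 Xist count in the Tcf7-/- DN2-3 library, the deepest at 8371808 counts, Xist cannot measure counts from there. A share of 111% cannot occur, so 1 rate does not hold for every well. Expected and subtracted values below carry this limit. Those 26 wells were shallow, with a median of 5595 counts and 4.21% of the library's counts. Results that low counts can touch are therefore given with 6 or more counts in a cell, and with the counts expected at the Xist rate subtracted. With that subtraction 955 genes (11.1%) were higher and 440 (5.1%) lower, and without the 26 wells 904 (10.5%) and 482 (5.62%).

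**Figure D1:**
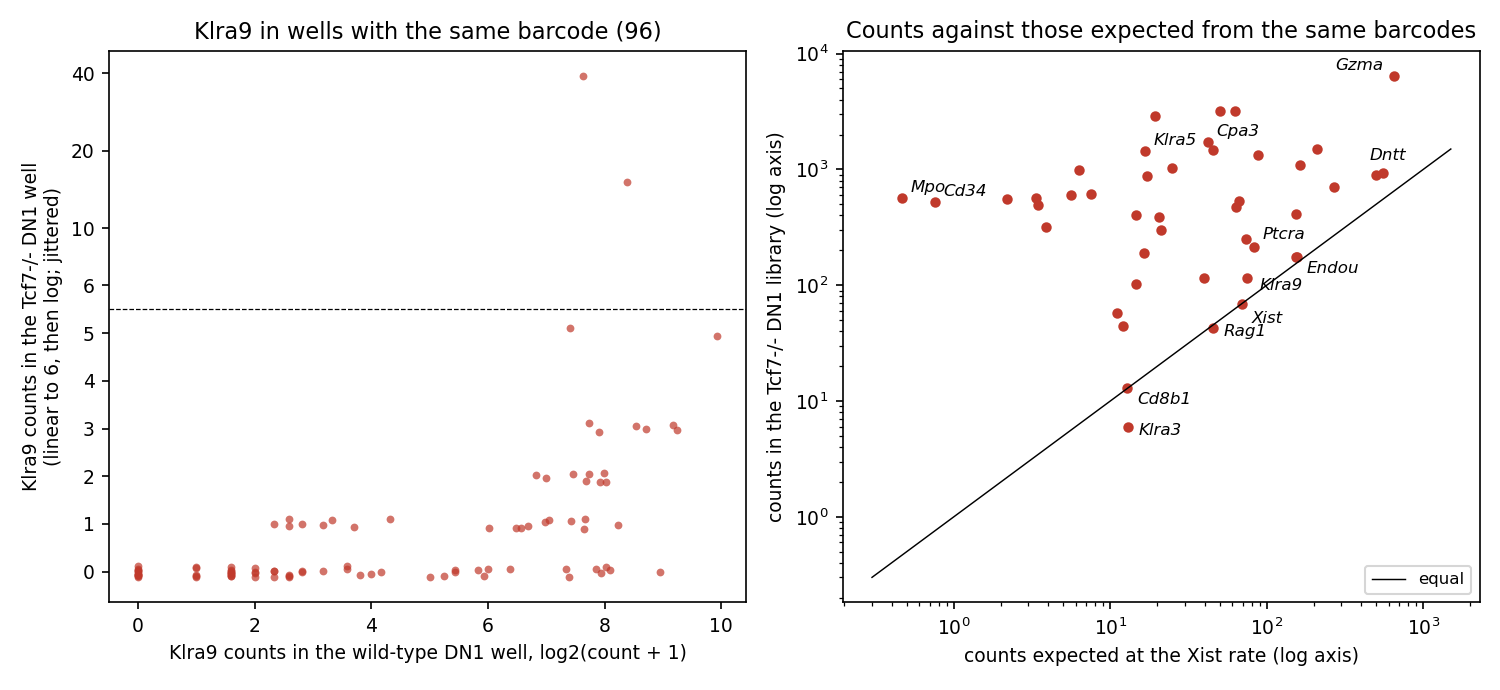
Left, Klra9 counts in each of the 96 Tcf7-/- DN1 wells (vertical) against the log2 Klra9 count of the wild-type DN1 well with the same barcode (horizontal), with a dashed line between 5 and 6 counts. Right, summed counts of selected genes in the Tcf7-/- DN1 library against the counts expected from the same barcodes at the Xist rate, both on log axes: Rag1, Cd8b1 and Endou lie near the line of equality, while Cd34 and Mpo, with 524 and 561 counts, lie far above it.

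The targeted gene was counted in both libraries. Tcf7 (GENCODE, mm10, chromosome 11, 52252371 to 52283014, minus strand) had 410 counts, 98.6 CPM, in the Tcf7-/- cells and 952 counts, 134 CPM, in the wild-type cells, a log2 ratio of -0.41. The ratio turned to 0.08 when cells were thinned to 10000 counts each, to 0.56 with cells weighted equally and to 0.98 in the deposited log2 values. Per cell the range was 0 to 34 with a median of 2 in Tcf7-/- and 0 to 149 with a median of 1 in wild type, and 6 or more counts stood in 20 and 28 cells. All Tcf7-/- cells lie within the wild-type range. At the Xist rate 154 of the 410 counts are expected from other libraries, and the log2 ratio was -0.80 without them and -1.20 with a subtraction at 2%. The labels do not give the deleted part of the gene, and counts over the whole gene cannot show whether the remaining transcripts hold it, so this value does not check the genotype. In the DN2-3 gate Tcf7 had 122 CPM in Tcf7-/- and 862 CPM in wild type.

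Genes of early blood progenitors were higher in the Tcf7-/- library. Of 19 measured members of an early progenitor list, 14 were at least 2-fold higher and 0 lower, beside 10.4% and 5.34% of all genes tested. The median log2 ratio was 1.72 beside 0.07 over all genes tested. Cd34, a surface sialomucin of haematopoietic progenitors (chromosome 1, 194938819 to 194961279, plus strand), ranged from 0 to 87 counts per Tcf7-/- cell, with 6 or more in 16 cells, and was 0 in all 86 wild-type cells, which allows a share of cells with a count of up to 3.49% (3 of 86 cells). Its sums of 126 and 0 CPM put it at least 299-fold higher, against a floor of 3 counts in the wild-type library. Mpo, the myeloperoxidase of granulocyte precursors (chromosome 11, 87793581 to 87804413, plus strand), ranged from 0 to 88 with 6 or more counts in 18 Tcf7-/- cells, and was also 0 in every wild-type cell.

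Cpa3, which encodes a carboxypeptidase of mast cells and early progenitors (chromosome 3, 20215620 to 20242181, minus strand), had 415 CPM (396 to 435) against 1.41 CPM (0.674 to 2.59). Its counts ran from 0 to 603 in Tcf7-/- cells, where 15 cells had 6 or more and 1 cell held 34.9% of the sum, and in wild type all 10 counts stood in 1 cell. Lyl1, a basic helix-loop-helix factor of progenitors that is also a T-cell leukaemia oncogene, had 137 against 7.03 CPM, with 18 and 2 cells at 6 or more counts. Kit, the stem cell factor receptor, had 76.2 against 10.1 CPM, and Bcl11a, a transcription factor of lymphoid progenitors, a log2 ratio of 1.48, with 97.1% of its wild-type counts in 1 cell. Igfbp4 and Flt3 were within 2-fold, at 0.04 and 0.28. Of 8 measured members of a list of T-cell leukaemia factors, 6 were higher, beside 10.4% of all genes. They were Lyl1, Mycn, Mef2c, Bcl11a and Hhex, which are on the progenitor list too, and Myb at 2.84. Lmo2 (0.47) and Myc (0.15) were within 2-fold.

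The progenitor genes stood in the same cells. Of the 16 Tcf7-/- cells with 6 or more Cd34 counts, 13 also had 6 or more of Mpo, 14 of Lyl1, 12 of Cpa3, 11 of Kit, 13 of Bcl11a, 13 of the carbonic anhydrase Car2 and 14 of the adhesion receptor Adgrg1. Among LTi and NK receptor genes used below, 14 of the 16 reached 6 counts of Tmem176b, 6 of Klrd1 and 1 of Rora. Tmem176b was at that level in 53 of all 96 cells, so it does not separate these sets. None of the 16 reached 6 counts of Ccr6 or of Klrk1. Cd28 and Cd3e were likewise below 6 counts in all 16, while 10 had 6 or more of the T-cell receptor component Cd3g and 16 of Nkg7, a granule gene of cytotoxic cells, which were at that level in 80 and 64 of all 96 cells. Expected same-barcode counts are not given for Cd3g and Nkg7, so the limit of 6 may not exclude such counts. At least 3 of the 6 genes Cd34, Mpo, Cpa3, Lyl1, Kit and Bcl11a reached 6 counts in 17 Tcf7-/- cells (17.7%, Clopper-Pearson interval 10.7 to 26.8%) and in 1 wild-type cell (1.16%, 0.0294 to 6.31%). A further 2 Tcf7-/- cells and 1 wild-type cell had exactly 2 of the 6. At 10000 counts per cell, with 2 counts as the limit, the numbers were 17 of 73 and 0 of 81. The 6 genes were chosen with these results known, and Flt3 and Igfbp4, which were within 2-fold, are not among them. These cell numbers therefore restate the gene values above.

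**Figure D2:**
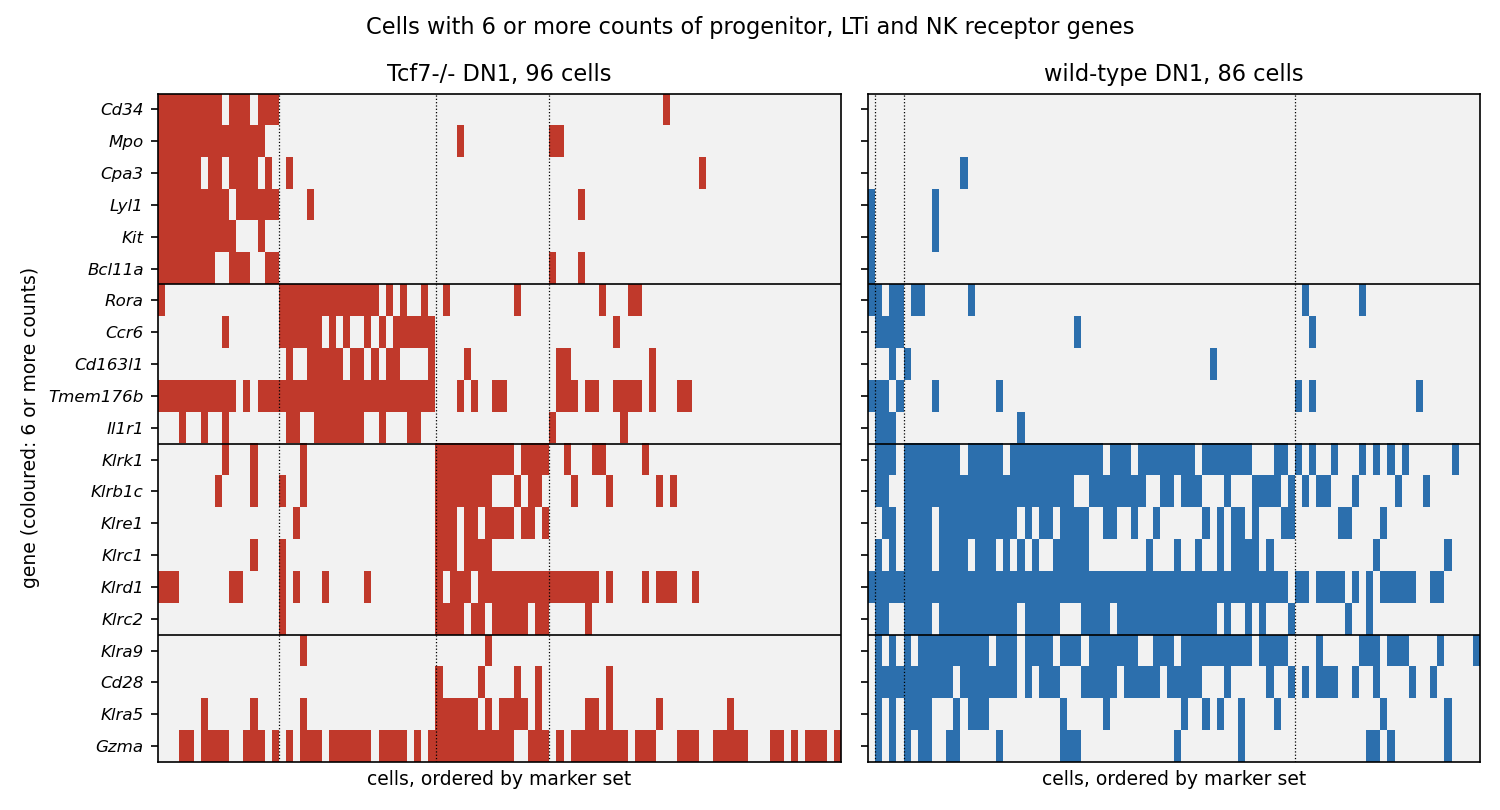
Each column is a kept cell and each row a gene, coloured where the cell had 6 or more counts, for 96 Tcf7-/- cells (left) and 86 wild-type cells (right). Solid lines separate progenitor, LTi and NK receptor genes from 4 further genes, and dotted lines separate cells with at least 3 genes of those sets in turn: 17 Tcf7-/- cells fall in the progenitor block against 1 wild-type cell. The LTi set includes Cd163l1, from the gamma-delta T list, and all sets were chosen with the results known.

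The 15 genes with the highest ratios included several of these. After Cpa3 (log2 ratio 5.22) came Scin, an actin-severing protein (4.43), Deptor, an inhibitor of mTOR (3.94), Ifitm2, an interferon-induced membrane protein (3.91), Mpo (3.86), Cd34 (3.77), Chad, a matrix protein (3.64), Car2 (3.63), Cdk6, a kinase of the G1 phase (3.57), and Adgrg1 (3.56). The set closes with Pdgfrb, a growth factor receptor (3.42), Adgrg3, another adhesion receptor (3.39), the transcription factor Sox4 (3.30), Cd24a, the heat-stable antigen of immature thymocytes (3.29), and Dntt (3.27). Dntt moved with the same-barcode counts, to 2.46 after subtraction at the Xist rate (217 to 119 CPM) and 1.53 at 2%, and to 4.51 with cells weighted equally. Deptor and Pdgfrb were at 0 counts in wild type, with 596 and 403 counts in Tcf7-/-, at least 340-fold and 230-fold higher. Scin had 869 counts against 1. Chad differed from most of the set in where it stood: 14 of its 19 cells with 6 or more counts also had 6 or more of Rora, 13 of Ccr6, and 1 of Cd34. Ifitm2 was wider spread, with 6 or more counts in 36 Tcf7-/- and 7 wild-type cells.

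**Figure D3:**
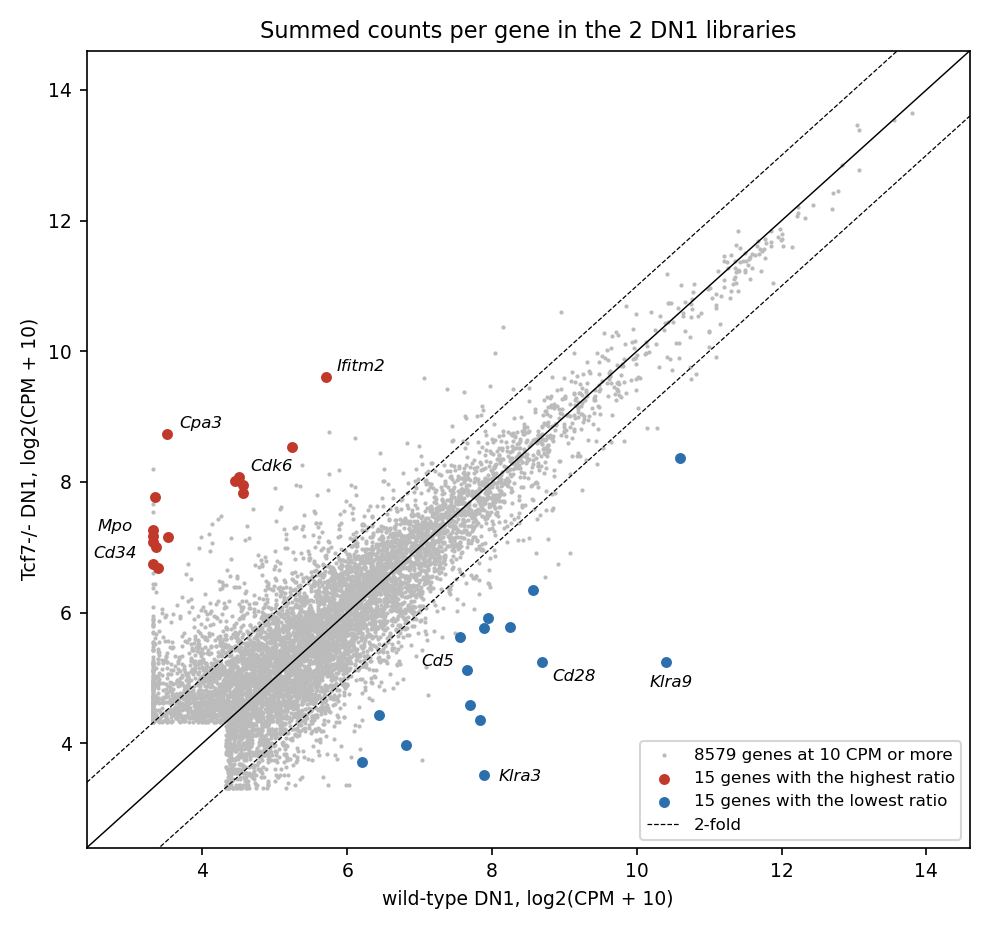
Summed expression of 8579 genes in the Tcf7-/- DN1 library (vertical) against the wild-type DN1 library (horizontal), both log2(CPM + 10), with dashed lines at 2-fold. Red points mark the 15 highest ratios and blue points the 15 lowest: Cpa3 stands at 415 against 1.41 CPM and Klra9 at 27.9 against 1348 CPM.

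A second group of higher genes is known from LTi cells and other type 3 innate lymphocytes, and several of them also from gamma-delta T cells, which these values do not separate. Of 27 measured ILC and LTi genes, 12 were at least 2-fold higher and 0 lower, beside 10.4% and 5.34% of all genes, with a median of 0.74. Rora, a nuclear receptor needed by ILC2 (chromosome 9, 68653786 to 69388246, plus strand), had 148 CPM (137 to 160) against 29.1 CPM (25.3 to 33.3), ratio 5.09 (4.34 to 5.99), with 23 and 9 cells at 6 or more counts. It ran from 0 to 59 counts in Tcf7-/- cells and from 0 to 54 in wild type, so the ranges overlap and the libraries differ in how many cells are high.

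Tmem176b, a membrane protein, had 761 against 123 CPM and the chemokine receptor Ccr6 of LTi cells 185 against 57.6 CPM. Pdcd1, which encodes the inhibitory receptor PD-1, had a log2 ratio of 2.15, and Tox, a factor of ILC development, 1.61. Il17a had 172 counts against 0, but 92.4% were in 1 cell, and Lta likewise had 67.7% of its counts in 1 cell. Id2 (-0.46), Gata3 (-0.19), Icos (-0.17) and Il7r (-0.93), which ILC share with other lymphocytes in the gate, were within 2-fold. Of the 23 Tcf7-/- cells with 6 or more Rora counts, 11 had 6 or more of Ccr6, 14 of Chad, 20 of Tmem176b and 10 of Cd163l1, a scavenger receptor of gamma-delta T cells. In 21 of the 23 Cd3g was also at 6 or more, as it was in 80 of all 96 cells, and Cd3e in 11. Of the 18 cells with 6 or more Ccr6 counts, all 18 had 6 or more of Tmem176b, 13 of Chad and 2 of Cd3e. At least 3 of the 5 genes Rora, Ccr6, Cd163l1, Tmem176b and Il1r1 reached 6 counts in 23 Tcf7-/- cells (24%, 15.8 to 33.7%) and 4 wild-type cells (4.65%, 1.28 to 11.5%), with 10 and 2 more cells at exactly 2. Only 1 Tcf7-/- cell had at least 3 genes of both this set and the progenitor set. The 5 genes were chosen with these results known, and Cd163l1 comes from the gamma-delta T list. Id2, Gata3, Icos and Il7r, which were within 2-fold, are not among them. These cell numbers therefore restate the gene values above.

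Among 11 measured gamma-delta T genes, 7 were higher and 1, Id3, lower, beside 10.4% and 5.34% of all genes. Cd163l1 had 425 against 43.9 CPM, the kinase Blk a ratio of 1.11 and the factor Maf 1.14 on the log2 scale. Others were Il17a and Sox4, described above, and Il17f, with a ratio of 2.31. Of the 19 genes on this list 13 were in the count data, and no T-cell receptor gamma or delta gene is among those named.

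Ly49 receptors, the MHC class I receptors of mouse NK cells, were the lowest group. Of 9 measured members 8 were at least 2-fold lower and 0 higher, beside 5.34% and 10.4% of all genes, with a median of -2.49. Klra9 (chromosome 6, 130178675 to 130193112, minus strand) had 116 counts, 27.9 CPM (23 to 33.5), against 9590 counts, 1348 CPM, a ratio of 0.0207 (0.0171 to 0.0248). In wild-type cells it ran from 0 to 971 counts with a median of 25, and 56 cells had 6 or more. In Tcf7-/- cells it ran from 0 to 39 with a median of 0, 2 cells had 6 or more, and 34 had the 1 to 5 counts described above, so that the subtraction took its level to 17.5 CPM and its log2 ratio from -5.16 to -5.63. Klra3 had 6 counts in all against 1612, Klra13-ps, a pseudogene, a log2 ratio of -3.47, Klra7 -3.11, Klra6 -2.49 and Klra1 -2.22, or -1.24 for Klra1 with cells weighted equally. Of the Klra7 and Klra13-ps counts in Tcf7-/-, 77.6% and 70.5% stood in 1 cell. Klra1 was more widely counted in Tcf7-/-, at 6 or more counts in 12 cells against 26 in wild type.

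Klra5 was the exception, with 344 CPM (326 to 362) against 258 CPM (246 to 270) and 6 or more counts in 20 and 19 cells. These genes are near copies of each other, and reads could be split between them. In GENCODE transcripts, the share of 100-base windows that also occur in another Ly49 gene was 4.07% for Klra9, 1.78% for Klra3, 1.83% for Klra7 and 0 for Klra5 and Klra1, and how the authors counted reads with several matches is not given in the sources used here.

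The 250 bases before the RefSeq start (GRCm38.p6, minus strand, 5′ to 3′) are shown for 4 of these genes on chromosome 6 in lower case, 3 that were lower and Klra5, which was not. Capitals mark the TCF core motif CTTTGA on either strand.
Klra9 (chr6:130193113-130193362): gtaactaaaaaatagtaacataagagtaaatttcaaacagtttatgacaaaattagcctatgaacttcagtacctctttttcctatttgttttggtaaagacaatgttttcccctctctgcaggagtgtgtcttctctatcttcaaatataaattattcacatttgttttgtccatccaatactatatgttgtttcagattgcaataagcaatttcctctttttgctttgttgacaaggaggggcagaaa
Klra3 (chr6:130337627-130337876): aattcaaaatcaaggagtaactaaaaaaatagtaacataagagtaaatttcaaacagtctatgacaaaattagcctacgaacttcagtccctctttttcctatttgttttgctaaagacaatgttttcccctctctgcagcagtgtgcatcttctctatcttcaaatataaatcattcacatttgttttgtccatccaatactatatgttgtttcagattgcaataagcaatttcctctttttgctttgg
Klra7 (chr6:130233323-130233572): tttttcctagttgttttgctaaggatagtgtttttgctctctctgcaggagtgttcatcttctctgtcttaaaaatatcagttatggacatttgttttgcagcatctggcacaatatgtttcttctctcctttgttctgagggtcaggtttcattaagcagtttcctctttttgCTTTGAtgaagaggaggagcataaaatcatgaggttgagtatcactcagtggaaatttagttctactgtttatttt
Klra5 (chr6:129913225-129913474): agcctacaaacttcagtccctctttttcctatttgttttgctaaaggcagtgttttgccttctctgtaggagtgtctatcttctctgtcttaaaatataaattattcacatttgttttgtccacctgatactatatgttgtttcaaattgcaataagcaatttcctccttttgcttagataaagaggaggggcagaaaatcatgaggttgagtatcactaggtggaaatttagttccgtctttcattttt
In a global alignment Klra9 and Klra3 were identical at 90% of the 250 bases, and Klra7 and Klra5 at 77.6%. Klra5 shared 69.6% with Klra9 and 64.8% with Klra3. The Klra7 window shown shared 58.8% with Klra9 and 53.2% with Klra3. These Klra7 values lie within the 49.6 to 62.4% of 21 pairs of a Ly49 promoter with that of Cd34, Lyl1 or Cpa3. The motif begins 76 bases before the Klra7 start shown, one of its RefSeq entries, and is not in these windows of Klra9, Klra3 and Klra5. It was in 13.8% of all 32851 RefSeq promoter windows, in 1 of the 11 highest genes with an entry (Mpo) and in 2 of the 10 lowest (Klra6 and Klra7). A gene was counted if any of its entries matched, so the share of single windows is not an exact background for genes. A match is a run of letters, not a shown binding site.

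Other NK and cytotoxic genes were split in direction: of 27 measured genes 4 were at least 2-fold higher, 10 lower and 13 within 2-fold. Of all genes tested 10.4% were higher and 5.34% lower, so the share of higher NK genes was near that background. The receptors Klrd1 (-1.32), Klre1 (-1.17), Klrk1 (-1.01) and Klrc2 (-1.37) were lower, as were the kinase-like Styk1 (-2.47) and Tbx21, the gene of the factor T-bet (-1.61). The granzymes were higher. Gzma had 1545 against 486 CPM, from 1 to 1116 counts with a median of 8 in Tcf7-/- cells, all of which had a count, and from 0 to 774 with a median of 1 in wild type. At the Xist rate 649 of its 6428 counts are expected from the other libraries. Spread over 96 wells, these can give a cell 6 or more counts. Gzmb had 701 against 240 CPM, with 37 and 42 cells at 6 or more counts. At 10000 counts per cell, Gzma was counted in 63 of 73 Tcf7-/- and 31 of 81 wild-type cells, and Gzmb in 45 of 73 (61.6%) and 44 of 81 (54.3%). At least 3 of Klrk1, Klrb1c, Klre1, Klrc1, Klrd1 and Klrc2 reached 6 counts in 18 Tcf7-/- cells (18.8%, 11.5 to 28%) and 58 wild-type cells (67.4%, 56.5 to 77.2%). A further 10 and 14 cells had exactly 2. These 6 receptor genes were likewise chosen with the results known, and the granzymes are not among them.

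To separate the number of NK receptor cells from their content, cells with 6 or more Klrk1 counts were compared, 22 in Tcf7-/- and 57 in wild type, with medians of 40471 and 67416 counts. Klrk1, which encodes the activating receptor NKG2D, was chosen after its values were seen. These cells are not called NK cells, since the T-cell receptor genes Cd3g and Cd3e were at 6 or more counts in 22 and 11 of the 22 and in 55 and 41 of the 57. Within these cells Klra9 had 61.8 against 1480 CPM, with 2 of 22 and 44 of 57 cells at 6 or more counts, and Klra3 2.03 against 243 CPM, with 0 and 12 cells. Klra5 was in the other direction, with 1270 against 321 CPM and 14 of 22 against 16 of 57 cells. Gzma had 5550 against 648 CPM, at 6 or more in 20 of 22 and 15 of 57 cells, Gzmb 2130 against 259 CPM and Ccl5, a chemokine, 4740 against 1130 CPM. Other receptors of the same cells were within 2-fold, Klrd1 with 1100 against 1130 CPM, Klrc2 476 against 386 CPM, Klrb1c 451 against 352 CPM, Klre1 667 against 415 CPM and Klrc1 458 against 256 CPM, and Id2 was 2990 against 3090 CPM. In the 36 and 74 cells chosen by Klrd1 instead, Klra9 had 35.8 against 1450 CPM, Klra5 657 against 265 CPM and Gzma 3460 against 512 CPM. That set also held 6 of the 16 Cd34 cells of Tcf7-/-, and the Klrk1 set 0 of them.

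Genes of the T lineage were lower or within 2-fold. Of 28 measured members 0 were higher and 9 at least 2-fold lower, beside 10.4% and 5.34% of all genes, with a median of -0.76. Cd28, the costimulatory receptor of T cells (chromosome 1, 60716800 to 60773359, plus strand), had 116 counts, 27.9 CPM (23 to 33.5), against 2871 counts, 404 CPM (389 to 419), a ratio of 0.0691 (0.0569 to 0.0832). It ran from 0 to 212 per wild-type cell with a median of 13.5, and from 0 to 31 with a median of 0 in Tcf7-/-, where 5 cells against 49 had 6 or more counts. Cd5, which damps T-cell receptor signals, had 24.8 against 192 CPM, Sidt1, a membrane protein, 5.77 against 103 CPM, and Prkcq, a kinase of the CD28 pathway, a log2 ratio of -1.49. The receptor chain genes Cd3e (-0.77), Cd3g (-0.97) and Cd247 (0.37) were within 2-fold and Cd3d (-1.17) was lower. So were the chromatin factor Satb1 (-1.26) and Ets1 (-1.01), while Bcl11b (-0.47) and Lck (-0.35) were within 2-fold.

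Cd28 and Cd5 were also lower within the Klrk1 cells, where Cd28 had 52.7 against 419 CPM, at 6 or more counts in 3 of 22 and 35 of 57 cells, and Cd5 23.3 against 175 CPM, while Cd3g had 1600 against 1820 CPM. The other genes among the 15 lowest ratios were Styk1, Ly6c2, a surface antigen (-2.23), Cd40lg, the CD40 ligand (-2.12), the E-protein inhibitor Id3 (-2.03, or -1.12 with cells weighted equally, with 38.1% of its wild-type counts in 1 cell), Arl4d (-2) and Adgre5, which encodes CD97 (-1.93). Ly6c2 was in every wild-type cell, from 1 to 939 counts, and at 6 or more in 10 Tcf7-/- against 63 wild-type cells. Within the Klrk1 cells it had 1250 against 1720 CPM, with 46.1% of the Tcf7-/- sum in 1 cell, medians of 1.5 and 62 counts, and 7 of 22 against 44 of 57 cells at 6 or more. In the cells chosen by Klrd1 it had 584 against 1660 CPM.

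**Figure D4:**
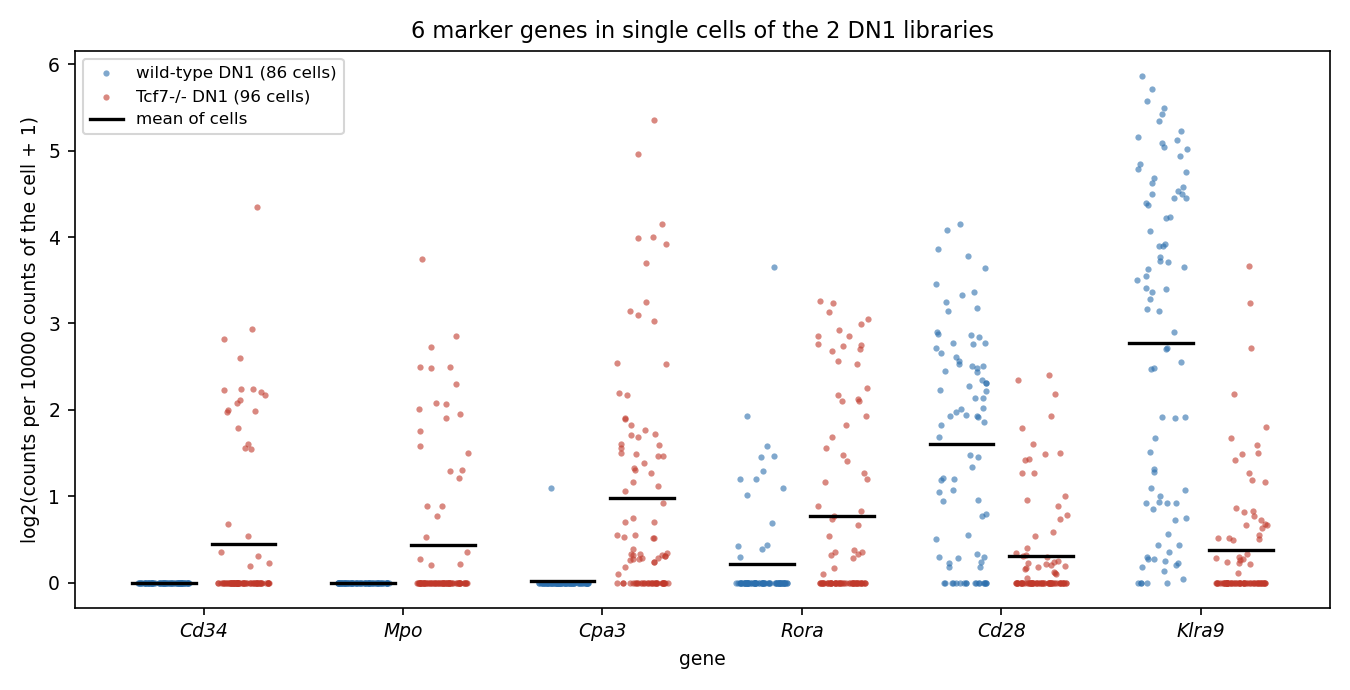
Expression of 6 genes in each of the 86 wild-type (blue) and 96 Tcf7-/- (red) DN1 cells as log2(counts per 10000 counts of the cell + 1), with bars at the mean of the cells. Cd34 and Mpo are at 0 in every wild-type cell, the Rora ranges overlap, and Cd28 and Klra9 are high in 49 and 56 wild-type cells (6 or more counts) and in 5 and 2 Tcf7-/- cells.

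Genes of the DN2-3 stage were higher as a list, and this list is the one that the same-barcode counts touch most. Of 17 measured members 13 were at least 2-fold higher and 0 lower, beside 10.4% and 5.34% of all genes. The list median was 2.37, and after subtraction at the Xist rate 12 of 16 were higher with a median of 1.83. The recombinase gene Rag1 had 43 counts where 45.2 were expected from the other libraries, Endou 176 where 155 were, and Aqp11 176 where 153 were. Cd8b1, which is on the T lineage list and not on this one, had 13 where 12.7 were expected. Relative to the other 7 libraries, these 4 genes were thus counted at rates near that of Xist. Aqp11 had a log2 ratio of 1.26 that came to 0.36 after subtraction and to -0.24 with counts of 1 to 5 set to 0. Ptcra, which encodes the pre-T-cell receptor alpha chain, had 0 to 9 counts per cell and 6 or more in 11 cells, with 212 counts against 83.2 expected. The 212 counts are 1.98% of the Ptcra counts of the other 7 libraries, so a rate of 2% would expect all of them.

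Other members stood above the expected level. Dntt, the terminal transferase of early lymphocytes, had 901 counts against 500 expected, with 47 cells at 6 or more, among them 14 of the 16 Cd34 cells. With 500 counts expected over 96 wells and a median of 5 per cell, the limit of 6 does not separate out same-barcode Dntt counts. Cdk6 had 1083 against 162, Cd24a 1496 against 210, and Hes1, a target of Notch, 532 against 66, with 16 cells at 6 or more, against 1 in wild type, and a log2 ratio of 2.52 that was 2.47 after subtraction. Of 8 measured Notch targets 3 were higher, beside 10.4% of all genes, namely Hes1, Ptcra and Il2ra, while Dtx1 (0.81), Notch1 (0.24) and Myc (0.15) were within 2-fold. For Ptcra the limit given above holds, since a rate of 2% would expect all its counts from other libraries. Of 9 measured TCF/LEF and Wnt genes 1 was higher, a share near that background, Tcf7l2 at 1.34, with all 22 wild-type counts in 1 cell. Axin2 (-0.80) was within 2-fold, and so was Lef1 at -0.75, which came to -1.22 after subtraction.

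**Figure D5:**
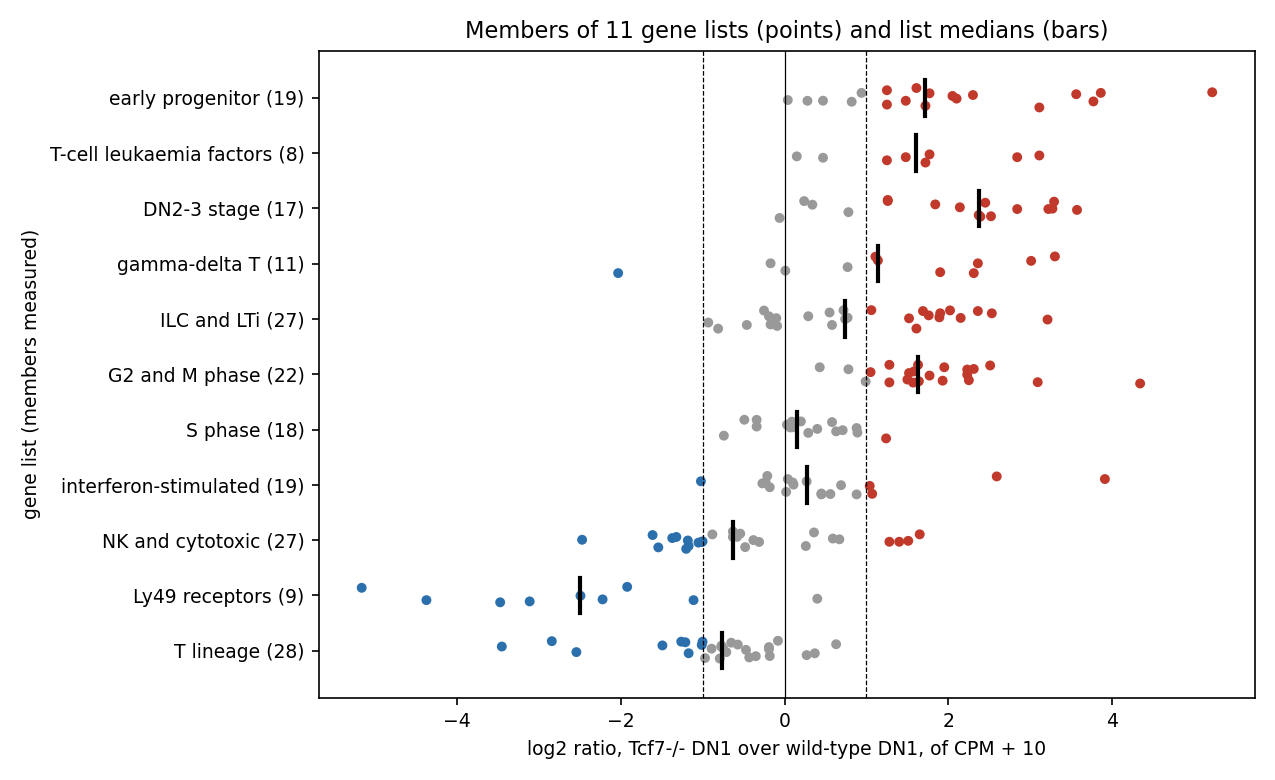
Log2 ratios (Tcf7-/- over wild-type DN1, of CPM + 10) of the measured members of 11 gene lists as points, red at or above 1, blue at or below -1, grey between, with black bars at the list medians. The early progenitor bar stands at 1.72, the DN2-3 stage bar at 2.37, and the Ly49 bar at -2.49 with Klra5 as its point above 0.

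The counts of the remaining lists stand beside 10.4% of all genes tested called higher and 5.34% lower, and those of single genes in a list of 15 or more are near or below that background. Of these lists, 19 of 22 measured G2 and M phase genes were higher, but 21 of the 22 had over 50% of the counts of a library in 1 cell. Without the highest cell of each gene 10 were measured and 6 were higher. Ube2c had 90.9% of its 798 counts in 1 cell, and Ccl1 was also left out of the named genes for that reason. Of 18 S phase genes 1 was higher. MHC class II genes were lower, H2-Aa at -2.19 and H2-Ab1 at -2.16, but 1 cell held 80.9% of the H2-Aa counts in Tcf7-/- and another 54.7% in wild type. Naaa, H2-Aa, H2-Ab1 and H2-Eb1 were left out of the lowest genes for the same limit. Of 18 dendritic-cell genes 5 were higher, Batf3, Ly6d, Ccr9, Itgax and Tcf4, and 5 lower, all of antigen presentation. Of the 932 Ly6d counts, 554 are expected from the other libraries at the Xist rate. Of 9 measured B-cell genes 3 were higher, and 7 had over 50% of a library's counts in 1 cell. Of 9 measured myeloid genes 3 were higher, Mpo, Lyz2 and Tyrobp, and 1, Aif1, lower. Of 8 erythroid and mast genes 4 were higher, Cpa3, Car2, Hbb-bt and Kit, while Hba-a1, Hba-a2 and Hbb-bs were lower. Of 19 interferon-stimulated genes 4 were higher, Ifitm2, Ifitm1, Isg15 and Mx1, and 1, Rsad2, lower. Of 15 immediate-early and stress genes 4 were higher, Fosb, Nr4a1, Fos and Egr1, with 37.9 to 65.1% of their Tcf7-/- counts in 1 cell. Of 6 E-protein and Id genes Lyl1 and Tcf4 were higher and Id3 lower, and of 15 homing genes 5 were higher, among them Ccr6 and Cxcr5, and 1, Cxcr3, lower. Of 2 thymic stroma genes 1, Pecam1, was higher, and of 12 sort and housekeeping genes Kit and Il2ra were. All 5 sex-linked genes differed, 4 higher and Xist lower. The part of other cell types, stress and cycling in the differences above was not tested.

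Unsupervised clustering of the 182 cells placed 17 Tcf7-/- cells and 1 wild-type cell in an early progenitor-like cluster, 29 and 2 in an LTi and ILC3-like cluster, and 7 and 42 in an NK-like one. The genes that define these clusters differ between the libraries, so these numbers restate the values above. The raised markers of the NK-like cluster were Klrb1c, Klrk1, Klra9, Tbx21 and Klre1. Cd3g had 6 or more counts in 81 of all 86 wild-type cells, and Cd3e in 57. The NK-like name therefore does not separate NK cells from T cells. The LTi and ILC3-like cluster had 5 raised markers of that class and 3 of gamma-delta T cells, which also meets the limit of 3, and Cd163l1 led its genes, so the name does not separate these classes. A cluster of 23 Tcf7-/- cells was left unnamed: its median depth was 5506 counts, 22 of the 23 wells were among the 26 with over 20% expected same-barcode counts, and Ly6d, Dntt and Arpp21 of the DN2-3 list were among its 10 leading genes. Clusters of 34 cells (20 Tcf7-/-) and 27 cells (all wild type) had fewer than 3 raised markers of any class and were also left unnamed.

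In Vav-cre DN1 cells (58 kept cells, 1547512 counts) the levels of the 6 markers were 38.8 CPM for Cd34, 20 CPM for Mpo, 38.1 CPM for Cpa3, 306 CPM for Rora, 14.2 CPM for Cd28 and 0 counts for Klra9. Cd34 and Mpo thus stood between the wild-type and Tcf7-/- levels, and Rora above both. The contrast of Vav-cre with wild type would share the wild-type library, and no overlap of the 2 contrasts is given.

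The DN2-3 gate gives a comparison of the same genotypes with no shared library, in which 263 of 8255 genes (3.19%) were 2-fold higher in Tcf7-/- and 863 (10.5%) lower. Of 7480 genes measured in both gates, 680 were at least 2-fold higher in Tcf7-/- DN1, of which 46 (6.76%, and 26% of the 177 higher in DN2-3) were also higher in DN2-3 and 130 (19.1%) were 2-fold lower there. The background share of lower genes in DN2-3 was 9.97% and of higher genes 2.37%. Same-barcode counts in the Tcf7-/- DN1 library can come from the DN2-3 libraries too, and the 130 genes were not recounted without them. The split in sex-linked genes also separates the genotypes in both gates, so the 2 comparisons share that limit. Of 288 genes lower in DN1, 47 (16.3%, and 6.3% of 746) were lower in both gates and 14 higher in DN2-3. Cd34 and Mpo were near 0 in both DN2-3 libraries, and Cpa3 had 24.2 CPM in Tcf7-/- against 482 CPM in wild type, opposite to DN1. Gzma was higher in both gates, at 1.65 and 1.28 on the log2 scale, and Klra9 was at 0.119 and 1.41 CPM in DN2-3.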

How the data were processed

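Per the labels' protocols, single cells were amplified with a modified STRT method (Smart-seq2 is named too). Per the submitters' processing notes, TopHat2 2.1.1 and HTSeq were used with mm10. Whether molecular identifiers were collapsed is not given in the sources used here. Deposited by the authors were raw counts for each gene in each cell and, as a second table, log2 values that its title gives as log2(TPM/10 + 1), used here as an alternative only. The file has 23154 entries; 27 with a date for a symbol (0.141% of counts) were dropped.

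Counts of kept cells were summed per library, scaled to CPM and compared as log2 ratios with a pseudocount of 10 CPM among genes at 10 CPM or more in a library. Poisson, conditional binomial and Clopper-Pearson intervals are 95%. With 1 library per group no test was run and edgeR was not used. Named genes are Tcf7, the 6 markers, list members, and the 15 highest and 15 lowest ratios with at least 50 CPM, a count in 20% of cells of the higher library and no cell over 50% of its counts, without unnamed models and sex-linked genes. The members and the 23 lists were chosen with earlier results of these data known. Cells were clustered with scanpy 1.11.5 (2000 variable genes, 15 components, 15 neighbours, Leiden resolution 1), and a cluster was named for the class with most raised markers, from 3 or more markers with 6 or more counts in 30% of its cells, a limit set after the clusters were seen. Some genes are not reported here. Low counts were 1 to 5 per cell. No doublet caller was run on these sorted plates.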

Additional observations from a re-analysis of the deposited data

Results flagged for a closer look

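Genes named above went in opposite directions past 2-fold in the 2 gates. The difference between the gates was not tested, since each gate and genotype is 1 library. Those higher in Tcf7-/- DN1 and lower in Tcf7-/- DN2-3 were Cpa3, with log2 ratios of 5.22 and -3.85, Pdgfrb (3.42 and -1.98), Cdk6 (3.57 and -1.73), Dntt (3.27 and -1.49), Ifitm2 (3.91 and -1.3), Kit (2.1 and -1.24) and Scin (4.43 and -1.22). Those lower in DN1 and higher in DN2-3 were Adgre5 (-1.93 and 1.78) and Id3 (-2.03 and 1.04). The limit on same-barcode counts given above applies to the Tcf7-/- DN1 values here too.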

How the results depend on the processing

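Of 41 genes past 2-fold, which include Ccl1, Ube2c, Naaa, H2-Aa, H2-Ab1 and H2-Eb1 that the naming rule left out, 15 alternatives gave 615 values in all, of which 607 stayed past 2-fold in the same direction and 0 reversed. The exceptions were Ccl1 (0.77 without its highest cell) and, in the deposited log2 values, Klra6 (-0.70), Id3 (-0.72), Naaa (-0.81), H2-Aa (-0.88), Gzmb (0.91), Kit (0.98) and Ccl1 (0.63). The limit of 50 CPM and the lack of any gene filter change only which genes are measured, so their values repeat the main ratios. Most of the 41 genes were chosen for extreme ratios in these data, so staying past 2-fold is a weak check. Log2 ratios that moved by over 1.5 times in fold included, with cells weighted equally, Cpa3 (4.52), Dntt (4.51), Scin (3.64), Deptor (3.18), Mpo (3.07), Adgrg3 (2.57), Lyl1 (2.47), Klra9 (-4.25), Cd28 (-2.83), Klra1 (-1.24) and Id3 (-1.12). In thinned cells they were, among others, Cpa3 (4.59), Scin (3.81), Cd34 (2.76), Cdk6 (2.7), Klra9 (-4.34) and Styk1 (-3.06), and without the highest cell Dntt (4.06), Klra7 (-3.73) and Ly6c2 (-2.9). The alternatives chosen after seeing the data were both subtractions of same-barcode counts (at the Xist rate and at 2%) and the omission of the 26 wells. They moved none of the counts named below by over 1.5 times. No paired analysis was possible because each group is 1 library and the numbers in the titles are well barcodes.

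Counts of genes 2-fold higher and lower were 1492 and 913 with a pseudocount of 1 CPM, 147 and 60 with 50 CPM, 360 and 196 among genes at 50 CPM or more, and 284 and 117 in the deposited log2 values. With counts of 1 to 5 set to 0 there were 724 lower genes, and higher genes made up 54% of the calls instead of 66.2%. Early progenitor genes higher numbered 7 with a pseudocount of 50 CPM and 7 in the log2 values, Ly49 genes lower 5 in the log2 values, and NK genes lower 5 in thinned cells and 6 with 50 CPM. Gamma-delta genes higher numbered 3 with 50 CPM and 4 in the log2 values, and DN2-3 genes 8 with 50 CPM. G2 and M phase genes higher numbered 12 with cells weighted equally, 8 in thinned cells, 6 without the highest cell, 5 with 50 CPM, 9 among genes at 50 CPM or more and 2 in the log2 values.

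Genes higher in both gates numbered 75 with cells weighted equally, 79 in thinned cells, 111 and 9 with pseudocounts of 1 and 50 CPM, and 20 at 50 CPM or more. Genes lower in both numbered 80 in thinned cells, 77 with low counts set to 0, 153 and 3 with pseudocounts of 1 and 50, 11 at 50 CPM or more and 6 in the log2 values. Between the Lck-cre plates, 431 genes were 2-fold apart, and 681, 886, 1292, 6, 100 and 24 with cells weighted equally, thinned cells, pseudocounts of 1 and 50, genes at 50 CPM or more and the log2 values. NK-like cells made up 0% of Tcf7-/- and 0% of wild-type cells at Leiden resolution 2, where no cluster took that name and 12 wild-type cells (14%) and 1 Tcf7-/- cell (1.04%) formed a dendritic-like class not seen at the other settings, and 81.4% of wild type at resolution 0.5. The early progenitor-like and the LTi and ILC3-like shares moved by less than their intervals. The floor of 3 counts was 0.721 CPM in Tcf7-/- and 0.422 CPM in wild type.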
